A study of Mus musculus with 14 samples.

Results

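A set of 41 of the 49315 genes in the count table was followed in the mouse left ventricle as a readout of macrophages and monocytes. They were chosen by name, with earlier results of these data known. The set held 23 genes of general macrophage and myeloid identity and 9 genes of resident cardiac macrophages. The rest were 3 genes of recruited monocytes, 3 of lipid-associated macrophages and 3 inflammatory genes. Of the 41 genes, 40 had enough reads for a test, out of 15292 tested genes in all. The exception was Plac8, a gene of circulating monocytes. RNA came from whole left ventricle of male mice that had TAC, a surgical narrowing of the transverse aorta that raises the pressure load, or Sham surgery at 10 to 12 weeks of age. Hearts were taken 5 weeks later. WT mice carried the normal Hcn4 gene. HCN4F mice carried a knock-in that puts phenylalanine in place of 1 tyrosine of the pacemaker channel HCN4, a gain of function in the germline, so it is not limited to the heart or to macrophages. The groups were WT-Sham (n = 4), WT-TAC (n = 2, replicates 2 and 3), HCN4F-Sham (n = 4) and HCN4F-TAC (n = 4). The source describes the replicates as biological.

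Tissue macrophages in the heart arise in part before birth and renew locally. Such resident cells take up debris through scavenger receptors and carry the markers LYVE1, TIMD4 and FOLR2. Under injury or pressure load, blood monocytes that carry the chemokine receptor CCR2 enter the muscle and turn into macrophages. Lipid-associated cells, marked by TREM2 and GPNMB, are known for handling lipid and dying cells. All these cells depend on the growth factor CSF1 and its receptor CSF1R, and on the transcription factor PU.1, which Spi1 encodes. In whole tissue, fewer cells of a type and less RNA per cell cannot be told apart.

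Depth was 22309914 to 35210939 counted reads per library. Values are given as CPM, a gene's reads relative to the TMM-scaled size of its library, and a fold change is on the log2 scale with its standard error (SE). A gene was called where edgeR gave an adjusted p under 0.05 and a log2 fold change beyond 1 in either direction. A count of 0 would allow up to 3 reads, or 0.0859 to 0.137 CPM, and this limit covers counting error only. Cardiomyocyte markers (6 genes, Myh6 and Tnnt2 among them) were abundant in every library, with a summed 48000 to 67100 CPM. Their sum was 59900 to 60000 CPM in WT-TAC and 48000 to 54100 CPM in HCN4F-TAC. In HCN4F-TAC the sum of 6 fibroblast markers was 746 to 1160 CPM, against 581 to 681 CPM in WT-TAC. A sum of 6 atrial genes, which include the stress-induced Nppa, was 417 to 1890 CPM in HCN4F-TAC and 73.6 to 249 CPM in the other libraries. The rise was not limited to Nppa: all 4 tested atrial genes had higher values in HCN4F-TAC than in WT-TAC, with a median log2 fold change of 2.12. The part of these shifts in the results below was not tested.

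The promoters shown belong to Retnla, the 1 gene of the set that was called, and to Fcgr1, Cx3cr1 and Ccr2, the 3 genes with the largest log2 fold change between HCN4F-TAC and WT-TAC among those with a mean of at least 1 CPM and no overlap. Each runs from 250 bases before to 50 bases after the RefSeq start site (assembly GRCm38.p6), on the strand of the gene. Capitals mark the letters GAGGAA on either strand, a core bound by PU.1, and TTC followed after 4 bases by GAA, a spacing bound by STAT6, the factor that carries interleukin-4 signals.
Retnla (chr16:48842359-48842658, plus strand): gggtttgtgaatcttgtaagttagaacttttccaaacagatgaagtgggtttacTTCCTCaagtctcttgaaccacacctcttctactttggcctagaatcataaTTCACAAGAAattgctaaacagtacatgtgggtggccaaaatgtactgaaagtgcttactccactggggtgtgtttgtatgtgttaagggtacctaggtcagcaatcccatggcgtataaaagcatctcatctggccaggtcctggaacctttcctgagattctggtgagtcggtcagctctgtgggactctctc
Fcgr1 (chr3:96293920-96294219, minus strand): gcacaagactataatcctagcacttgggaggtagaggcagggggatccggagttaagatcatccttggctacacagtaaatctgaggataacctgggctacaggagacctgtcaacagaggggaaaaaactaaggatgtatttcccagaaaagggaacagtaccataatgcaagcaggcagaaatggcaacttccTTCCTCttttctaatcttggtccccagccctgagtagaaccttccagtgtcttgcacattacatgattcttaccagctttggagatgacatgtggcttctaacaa
Cx3cr1 (chr9:120068247-120068546, minus strand): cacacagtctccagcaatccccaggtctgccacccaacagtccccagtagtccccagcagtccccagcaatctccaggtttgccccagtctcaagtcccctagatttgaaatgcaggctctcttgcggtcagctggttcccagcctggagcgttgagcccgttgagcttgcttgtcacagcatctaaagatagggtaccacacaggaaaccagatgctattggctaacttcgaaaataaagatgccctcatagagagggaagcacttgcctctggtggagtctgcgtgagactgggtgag
Ccr2 (chr9:124101933-124102232, plus strand): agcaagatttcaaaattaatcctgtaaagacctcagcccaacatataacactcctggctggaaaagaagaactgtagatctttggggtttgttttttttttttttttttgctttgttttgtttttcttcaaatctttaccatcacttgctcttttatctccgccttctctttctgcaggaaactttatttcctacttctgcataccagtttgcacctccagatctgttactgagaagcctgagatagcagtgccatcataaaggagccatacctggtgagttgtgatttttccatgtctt

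The Retnla window held 1 match to GAGGAA and 1 stretch with the TTC and GAA spacing, which reads the same on both strands. The Fcgr1 window held 1 match to GAGGAA. Neither set of letters was found in the windows of Cx3cr1 and Ccr2. RefSeq promoters were matched for 34 of the 41 genes; those of Lyve1, Tyrobp, Spi1, Adgre1, Msr1, Cd14 and Csf1r were not shown. GAGGAA was present in 19 of the 34 genes (55.9%), where 31.3% of all genes with a promoter held it. The TTC and GAA spacing was present in 6 of the 34 (17.6%), where 8.0% of all genes held it: Cbr2, Lgals3, Ms4a7, Nlrp3, Plac8 and Retnla. GGG followed after 5 bases by CC, a loose form of the NF-kappaB site, was in 55.9% of the 34 genes and in 53.5% of all genes. Each search covered both strands. A match describes the letters only.

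Per kilobase of exon, the most abundant of the 41 genes in WT-Sham was Lyz2, the lysozyme of macrophages and neutrophils, at 52.9 ± 7.93 CPM per kb (SD, n = 4). Pf4, a platelet and macrophage chemokine, followed at 8.53 ± 1.07 CPM per kb. Cbr2 had 8.10 ± 1.86 CPM per kb, Ctss, a lysosomal protease, 7.92 ± 1.43 and Tyrobp, the signalling adaptor DAP12, 7.83 ± 0.88. The 4 genes after Lyz2 did not differ beyond their spread. The lowest were Tnf at 0.0667 ± 0.0601 CPM per kb and Plac8 at 0.0607 ± 0.028 CPM per kb, and these too lay within each other's spread. The recruited monocyte genes were also low, with Ccr2 at 0.229 ± 0.127 CPM per kb and Ly6c2 at 0.148 ± 0.0937 CPM per kb. Some exon sequence of the set occurs in other genes, and reads there can be split. The share of 50-base stretches found in any other gene was 15.4% for Lyz2 (Lyz1), 14.4% for Ly6c2 (mostly Ly6c1), 12.1% for Cbr2 (Gm11771), 10.5% for Ms4a6c (Ms4a6b and 2 other genes), 9.6% for Fcgr3 (Fcgr2b) and 4.4% for Fcgr2b (mostly Fcgr3). Values of these genes are uncertain to that extent.

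**Figure D1:**
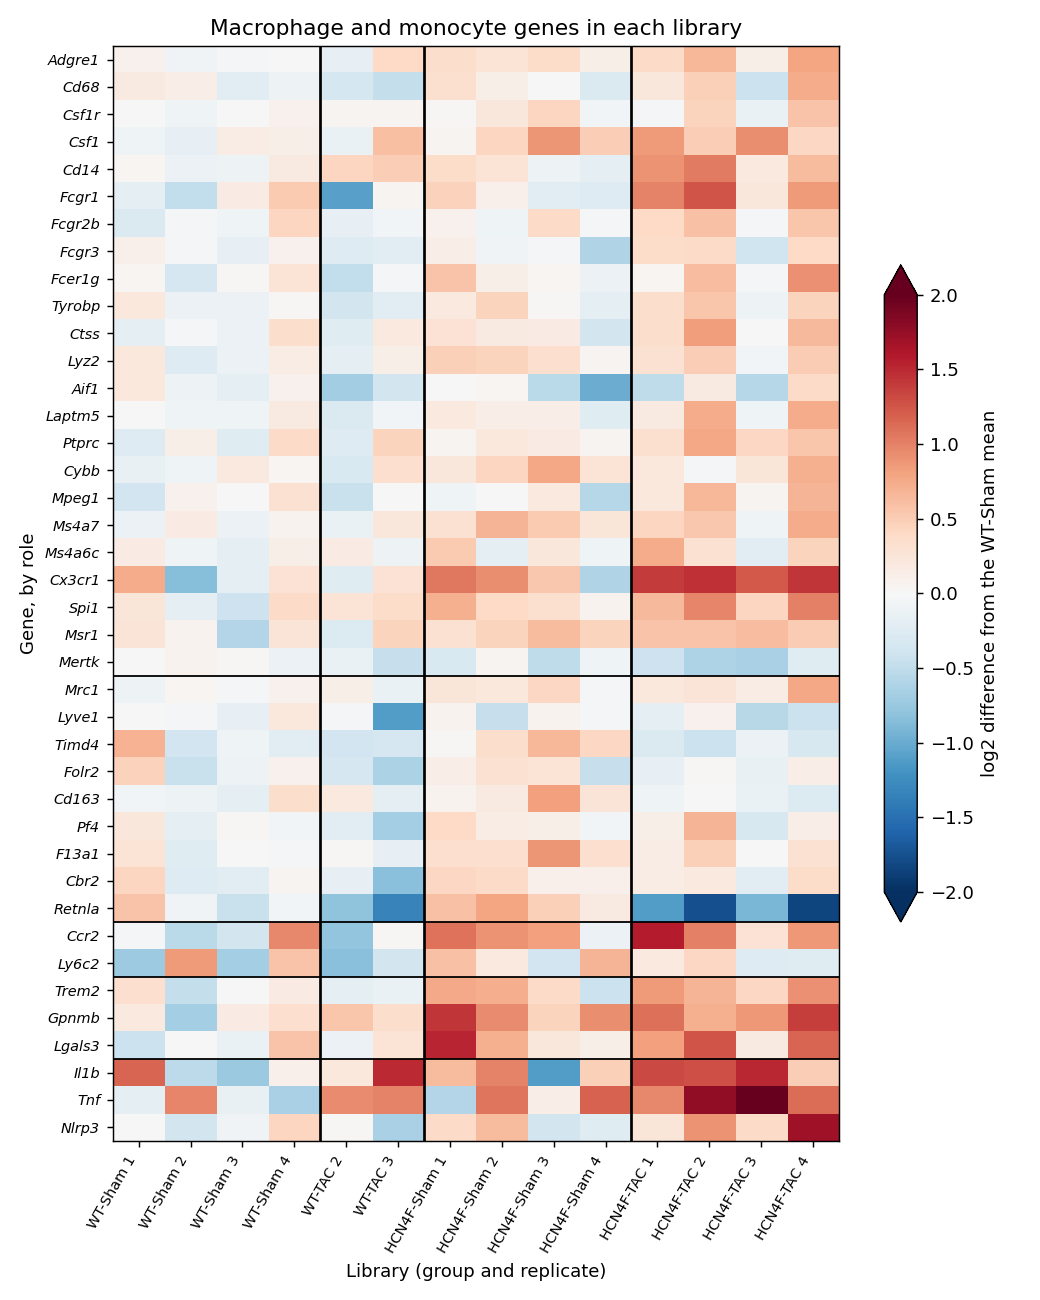
Log2 difference of each of the 40 tested genes (rows, by role: general identity, resident, recruited monocyte, lipid-associated, inflammatory) from its WT-Sham mean in the 14 libraries (columns); red is higher, blue lower, and the colour scale ends at 2 and -2. Retnla is blue in all 6 TAC libraries, while most general genes are red in HCN4F-TAC replicates 1, 2 and 4 and pale in replicate 3.

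In WT hearts, TAC against Sham asks how the set responds to pressure load in normal mice. None of the 40 genes was called; at an unadjusted p under 0.05 there were 4 (Retnla, Cbr2 and Folr2 lower, Cd14 higher), and DESeq2 called Retnla. For comparison, 0.706% of all tested genes were called, 4.54% passed the adjusted p alone and 22.0% had an unadjusted p under 0.05. Values were higher after TAC for 14 of the 40 genes (35%; all tested genes, 46.5%) and the median log2 fold change was -0.11 (all tested genes, -0.023). Without WT-Sham replicate 4 this median was 0.011 and without WT-TAC replicate 3 it was -0.21. In the same comparison 4 of 6 cardiomyocyte markers had lower values, 2 of them past the adjusted p. Their sum was 64700 to 67100 CPM in WT-Sham and 59900 to 60000 CPM in WT-TAC. Of 6 fibroblast markers 3 had lower values, 1 of them past the adjusted p, and 3 had higher values. The part of these markers in the result was not tested. The libraries did not overlap between the groups for 2 genes that were higher (Cd14 and Gpnmb; background 19.2%) and 7 that were lower (Cd68, Fcgr3, Tyrobp, Aif1, Mertk, Pf4 and Retnla; background 20.0%), and neither share of the 40 genes exceeded its background.

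In HCN4F hearts, the same comparison called 1 gene, Retnla, which was lower. Over all tested genes 2.75% were called, 13.6% passed the adjusted p alone and 28.3% had an unadjusted p under 0.05; among the 40 genes 2 passed the adjusted p alone (Retnla and Cd14) and 14 had an unadjusted p under 0.05. The share called thus lay near the background, and the share that passed the adjusted p alone lay below it. Values were higher for 28 of the 40 genes (70%; all tested genes, 48.9%) and the median log2 fold change was 0.21 (all tested genes, -0.0067). In the same comparison 5 of 6 cardiomyocyte markers had lower values, 4 of them past the adjusted p, and 5 of 6 fibroblast markers had higher values, 2 of them past it (summed 623 to 796 CPM in HCN4F-Sham and 746 to 1160 CPM in HCN4F-TAC). Their part in the result was not tested. The median of the 40 genes was 0.10 without HCN4F-Sham replicate 4, 0.105 without HCN4F-TAC replicate 4 and 0.34 without HCN4F-TAC replicate 3. Libraries did not overlap for 2 genes that were higher (Ptprc and Cx3cr1; background 7.95%) and 3 that were lower (Timd4, Cd163 and Retnla; background 7.16%). Both TAC comparisons enter the same fit, but they share no library; each comparison between genotypes shares its libraries with them.

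**Figure D2:**
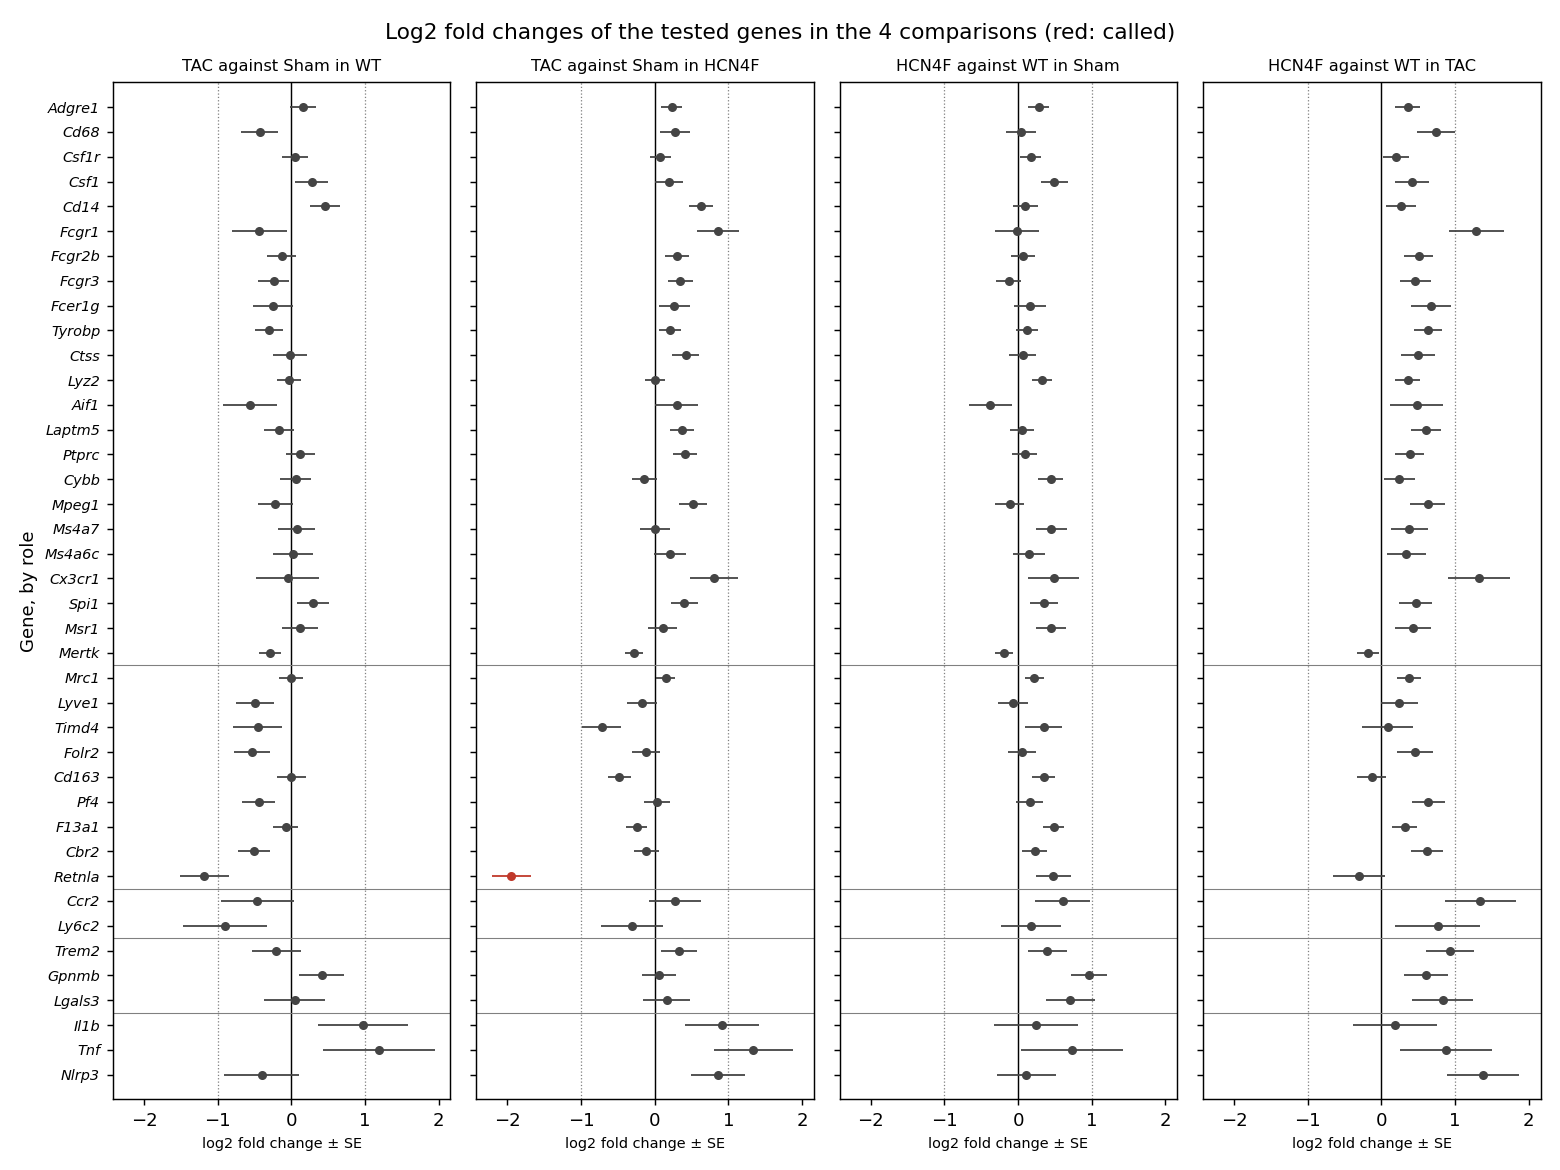
Log2 fold change (point) and SE (line) of the 40 tested genes in the 4 comparisons, by role; dotted lines stand at 1 and -1, and red marks the 1 called gene. Retnla in HCN4F hearts (-1.95) is the only red point, and in the panel of HCN4F against WT in TAC 37 of the 40 points lie right of 0.

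Retnla encodes RELMalpha, a secreted protein that interleukin-4 induces in macrophages (gene at chr16:48842551-48844461, plus strand). The 4 WT-Sham libraries had 3.10, 1.96, 1.49 and 1.99 CPM, in replicate order, and the WT-TAC libraries (replicates 2 and 3) had 1.15 and 0.773 CPM. In HCN4F-Sham it was 3.12, 3.61, 2.89 and 2.35, and in HCN4F-TAC 0.912, 0.560, 1.06 and 0.529. Every TAC library lay below every Sham library of its genotype. In HCN4F hearts it fell after TAC by 1.95 on the log2 scale (SE 0.266, adjusted p = 0.0002), that is 3.88-fold. The call held in every alternative run, with log2 fold changes from -2.16 to -1.82. In WT hearts the log2 fold change was -1.18 (SE 0.33, adjusted p = 0.0515), just outside the threshold. There Retnla was called by DESeq2 (adjusted p = 0.0141). It was also called without WT-Sham replicate 3 (adjusted p = 0.0411), HCN4F-Sham replicate 2 (0.0451) or HCN4F-TAC replicate 3 (0.0427), and with no other single library left out. Without WT-TAC replicate 3 the log2 fold change was -0.89 (adjusted p = 0.403), and without WT-Sham replicate 1 it was -0.95 (adjusted p = 0.134). The difference of the TAC responses between genotypes was -0.78 (SE 0.427, adjusted p = 0.597), so that a larger fall in HCN4F hearts was not shown. Between the genotypes the log2 fold change was 0.48 in Sham (SE 0.235, adjusted p = 0.346) and -0.30 in TAC hearts (SE 0.356, adjusted p = 0.781).

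The fall of Retnla was also seen relative to the general genes Adgre1, Cd68 and Csf1r. Divided by the geometric mean CPM of Adgre1, Cd68 and Csf1r in the same library, its level was 0.208 ± 0.0552 in WT-Sham (SD, n = 4), 0.0764 and 0.126 in the WT-TAC libraries, 0.262 ± 0.0318 in HCN4F-Sham (n = 4) and 0.066 ± 0.0391 in HCN4F-TAC (n = 4). The ranges were 0.156 to 0.286 in WT-Sham, 0.236 to 0.307 in HCN4F-Sham and 0.0319 to 0.116 in HCN4F-TAC, so that each TAC group again lay below its Sham group.

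**Figure D3:**
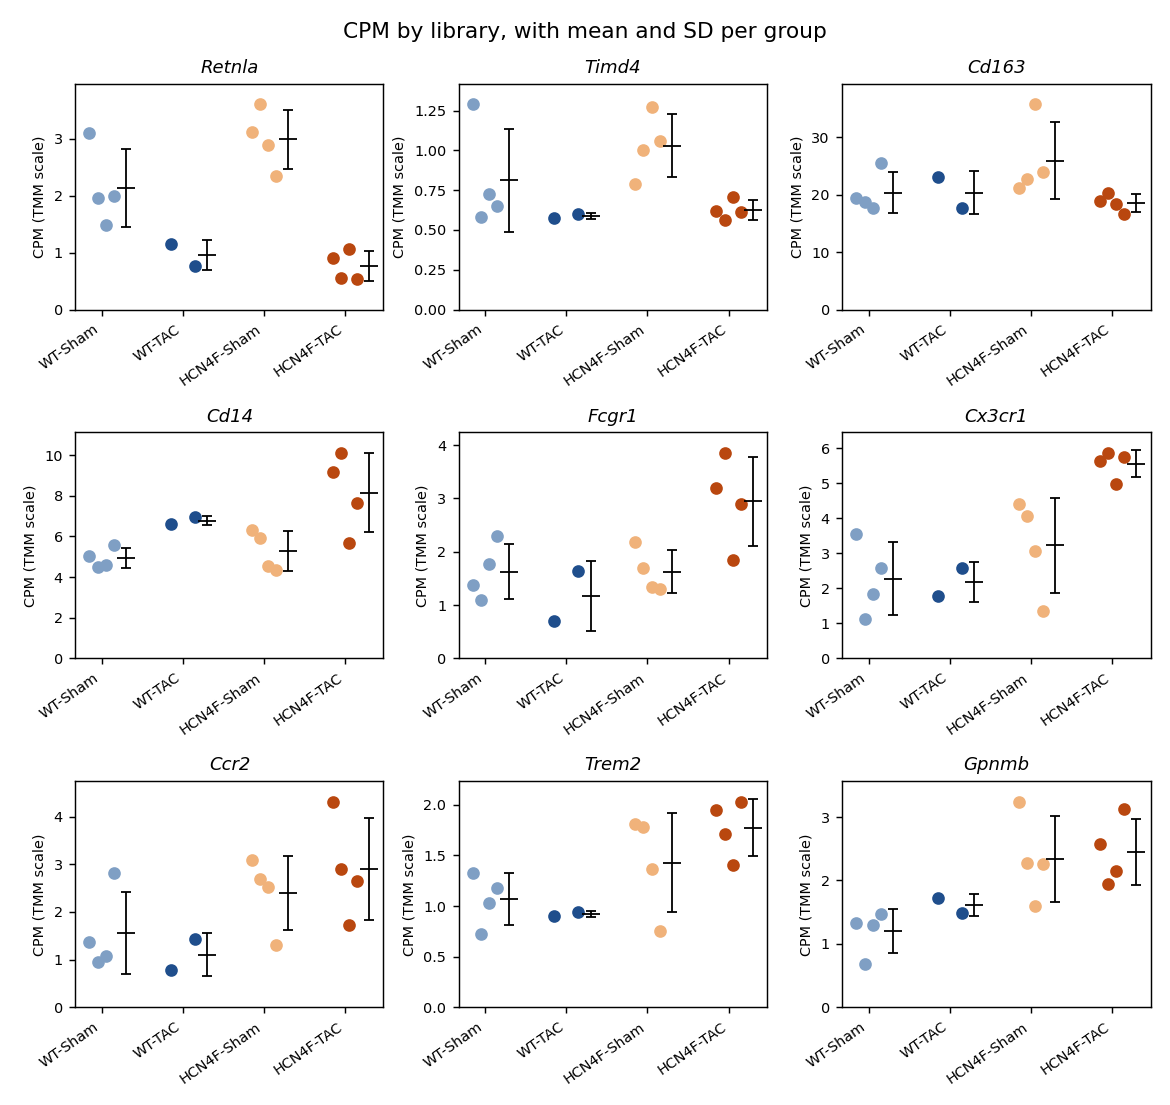
CPM (TMM scale) of 9 genes in each library (points) by group, with the group mean (bar) and SD (whisker) beside them; n = 4, 2, 4 and 4 from left to right. Retnla has 0.529 to 1.15 CPM in the TAC libraries and 1.49 to 3.61 CPM in the Sham libraries, and the 4 HCN4F-TAC values of Cx3cr1 (4.98 to 5.86) lie above all other libraries.

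None of the other resident genes was called after TAC. In WT all 9 resident genes had a negative log2 fold change, with a median of -0.46; in HCN4F hearts it was 7 of the 9, with a median of -0.18. The WT-TAC libraries differed here: the median log2 difference of the resident genes from WT-Sham was -0.17 in replicate 2 and -0.63 in replicate 3. Without replicate 3 the log2 fold changes in WT were positive for Mrc1 (0.12), Cd163 (0.18) and F13a1 (0.013). Timd4, a receptor for phosphatidylserine on dying cells that marks long-lived resident macrophages, had 1.29, 0.580, 0.726 and 0.653 CPM in WT-Sham and 0.575 and 0.601 CPM in WT-TAC. The HCN4F-Sham libraries had 0.790, 1.00, 1.27 and 1.06 CPM and in HCN4F-TAC 0.622, 0.560, 0.706 and 0.610 CPM. The HCN4F groups did not overlap, whereas both WT-TAC values lay at the lower end of WT-Sham, where replicate 1 was high. The log2 fold change after TAC was -0.46 in WT (SE 0.335, adjusted p = 0.442) and -0.72 in HCN4F (SE 0.265, adjusted p = 0.0829), where the adjusted p was 0.0396 without WT-Sham replicate 1. Between the TAC groups it was 0.083 (SE 0.343, adjusted p = 0.952).

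Cd163, the scavenger receptor for haemoglobin, had 21.2, 22.8, 35.8 and 24.0 CPM in HCN4F-Sham and 18.9, 20.3, 18.4 and 16.7 CPM in HCN4F-TAC, with no overlap. Its log2 fold change there was -0.48 (SE 0.158, adjusted p = 0.0557); DESeq2 gave an adjusted p of 0.0279, and edgeR gave 0.0329 with HCN4F-Sham replicate 1 left out and 0.0382 with WT-Sham replicate 4 left out. In WT the levels were 19.4, 18.7, 17.7 and 25.6 CPM in Sham and 23.1 and 17.7 CPM in TAC, with a log2 fold change of -0.0014 (SE 0.194, adjusted p = 0.998). The difference between these responses was -0.48 (SE 0.249, adjusted p = 0.574).

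Lyve1, a hyaluronan receptor of perivascular macrophages and of lymphatic endothelium, had 19.2, 18.8, 17.2 and 22.2 CPM in WT-Sham and 19.0 and 8.87 CPM in WT-TAC. The low value was that of replicate 3. The log2 fold change was -0.49 (SE 0.256, adjusted p = 0.278), and without WT-TAC replicate 2, it was -1.13 (adjusted p = 0.0357). That fit leaves replicate 3 as the only WT-TAC library and takes its spread from the other groups, so that it rests on this 1 low value. In HCN4F-Sham Lyve1 had 20.3, 14, 20.3 and 18.9 CPM and in HCN4F-TAC 17.1, 20.6, 13.2 and 14.3 CPM. There it was -0.18 (SE 0.204, adjusted p = 0.613), and between the TAC groups 0.24 (SE 0.255, adjusted p = 0.759). In the latter comparison the sign changed to -0.22 without WT-TAC replicate 3. The summed level of 5 lymphatic endothelial markers was 81.3 to 102 CPM in WT-Sham, 88.2 to 99.1 CPM in WT-TAC, 84.4 to 94.1 CPM in HCN4F-Sham and 85.1 to 105 CPM in HCN4F-TAC.

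Pf4 had 7.17, 5.33, 6.19 and 5.91 CPM in WT-Sham and 5.30 and 3.81 CPM in WT-TAC, without overlap but with little gap (log2 fold change -0.45, SE 0.228, adjusted p = 0.264). Folr2, a folate receptor, and Cbr2, a carbonyl reductase, had log2 fold changes in WT of -0.53 (adjusted p = 0.211) and -0.51 (adjusted p = 0.185). In HCN4F hearts Pf4, Folr2 and Cbr2 lay between -0.12 and 0.035 (adjusted p from 0.704 to 0.924). Mrc1, the mannose receptor, had -0.0041 in WT and 0.15 in HCN4F, and F13a1, the A chain of coagulation factor XIII, -0.079 and -0.25 (adjusted p from 0.265 to 0.992 for both genes).

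Among the general identity genes, 10 of 23 were higher after TAC in WT (median log2 fold change -0.033) and 19 of 23 in HCN4F hearts (median 0.27). Cd14, the co-receptor for lipopolysaccharide, had 5.03, 4.50, 4.59 and 5.59 CPM in WT-Sham and 6.61 and 6.93 CPM in WT-TAC. In HCN4F-Sham it had 6.32, 5.93, 4.56 and 4.35 CPM and in HCN4F-TAC 9.17, 10.1, 5.65 and 7.65 CPM, so that only replicate 3 overlapped with Sham. The log2 fold change was 0.63 in HCN4F hearts (SE 0.164, adjusted p = 0.017), past the adjusted p but under a log2 fold change of 1. It did not pass without HCN4F-Sham replicate 3 or 4 or without HCN4F-TAC replicate 1 or 2, nor in a fit of the 2 compared groups alone. In WT hearts it was 0.46 (SE 0.199, adjusted p = 0.187; 0.0333 in a fit of the 2 compared groups alone), and the difference of the responses was 0.17 (SE 0.26, adjusted p = 0.882).

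The pan-macrophage marker Adgre1 (F4/80) had 7.43, 6.67, 6.81 and 7.02 CPM in WT-Sham and 6.20 and 9.25 CPM in WT-TAC. In HCN4F-Sham it had 8.92, 8.44, 9.0 and 7.61 CPM and in HCN4F-TAC 9.08, 11.1, 7.56 and 12.1 CPM. The WT-TAC values lay on either side of WT-Sham, and all HCN4F-Sham values lay above WT-Sham. After TAC the log2 fold change was 0.16 in WT (SE 0.174, adjusted p = 0.636) and 0.23 in HCN4F (SE 0.141, adjusted p = 0.303). It was 0.36 between the TAC groups (SE 0.174, adjusted p = 0.416).

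Cd68, a lysosomal glycoprotein of phagocytes, had 5.36, 5.19, 4.05 and 4.41 CPM in WT-Sham and 3.70 and 3.38 CPM in WT-TAC. In HCN4F-Sham it had 5.91, 5.11, 4.74 and 3.83 CPM and in HCN4F-TAC 5.56, 6.62, 3.50 and 7.97 CPM. Replicate 3 of HCN4F-TAC lay with WT-TAC and the other 3 above it. The log2 fold change after TAC was -0.43 in WT (SE 0.254, adjusted p = 0.339) and 0.27 in HCN4F (SE 0.199, adjusted p = 0.391), and between the TAC groups it was 0.74 (SE 0.254, adjusted p = 0.238). The last value was 0.93 with an adjusted p of 0.0189 without HCN4F-TAC replicate 3.

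Csf1r, the receptor on which macrophages depend, had 32.2, 29.9, 31.8 and 33.7 CPM in WT-Sham, 32.9 and 33.1 CPM in WT-TAC, 32.4, 37.4, 43.1 and 30.6 CPM in HCN4F-Sham and 31.5, 43.5, 29.0 and 47.3 CPM in HCN4F-TAC. All groups overlapped. After TAC the log2 fold change was 0.051 in WT (SE 0.172, adjusted p = 0.897) and 0.078 in HCN4F (SE 0.14, adjusted p = 0.761), and between the TAC groups 0.20 (SE 0.173, adjusted p = 0.692). Its ligand Csf1, which fibroblasts and endothelial cells also make, had 25.9 to 31.9 CPM in WT-Sham, 26.2 and 43.7 CPM in WT-TAC, 30.1 to 53.3 CPM in HCN4F-Sham and 38.5 to 55.1 CPM in HCN4F-TAC. Its log2 fold change between genotypes was 0.49 in Sham (adjusted p = 0.238) and 0.41 in TAC hearts (adjusted p = 0.49).

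Ptprc (CD45, the marker of all leukocytes) and Cx3cr1 (the fractalkine receptor) were the general genes without overlap in HCN4F hearts. Ptprc had 5.23, 5.84, 5.68 and 5.28 CPM in HCN4F-Sham and 6.30, 8.73, 6.78 and 7.44 CPM in HCN4F-TAC (log2 fold change 0.41, SE 0.164, adjusted p = 0.106). Cx3cr1 had 4.40, 4.06, 3.07 and 1.36 CPM in HCN4F-Sham and 5.64, 5.86, 4.98 and 5.74 CPM in HCN4F-TAC (log2 fold change 0.80, SE 0.323, adjusted p = 0.117). HCN4F-Sham replicate 4 was the low value. Fcgr1, the high-affinity IgG receptor, had a log2 fold change of 0.86 there (SE 0.284, adjusted p = 0.0538; 0.0272 by DESeq2) and was called without HCN4F-Sham replicate 1 (1.04, adjusted p = 0.0357) or HCN4F-TAC replicate 3 (1.04, adjusted p = 0.0163). Mpeg1 had 0.52 (adjusted p = 0.0842), and Ctss, Laptm5 and Spi1 had 0.42, 0.37 and 0.40 (adjusted p from 0.141 to 0.15). Without HCN4F-TAC replicate 3, 7 of the 40 genes passed the adjusted p alone, 6 of them higher (Cd14, Fcgr1, Fcgr3, Ctss, Laptm5 and Mpeg1), where 15.6% of all tested genes did. Mertk, a receptor for the uptake of dying cells, had lower values in both genotypes (-0.29 in WT, adjusted p = 0.271; -0.28 in HCN4F, adjusted p = 0.143, and 0.0466 without HCN4F-Sham replicate 3). In WT Spi1 had 0.29 (adjusted p = 0.464). The general genes whose change after TAC has not been given had log2 fold changes from -0.56 (Aif1) to 0.27 (Csf1) in WT and from -0.14 (Cybb) to 0.35 (Fcgr3) in HCN4F hearts.

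Recruited monocyte genes were scarce. Ccr2 had 1.37, 0.943, 1.07 and 2.81 CPM in WT-Sham, 0.780 and 1.43 CPM in WT-TAC, 3.09, 2.69, 2.53 and 1.30 CPM in HCN4F-Sham and 4.31, 2.90, 1.73 and 2.64 CPM in HCN4F-TAC. WT-Sham replicate 4 and HCN4F-Sham replicate 4 stood away from their groups, and TAC and Sham overlapped in both genotypes. After TAC the log2 fold change was -0.46 in WT (SE 0.492, adjusted p = 0.62) and 0.28 in HCN4F (SE 0.356, adjusted p = 0.653). Without WT-Sham replicate 4 the WT value was 0.0076. Ly6c2, which marks classical monocytes, had 0.164 to 0.689 CPM over all libraries and log2 fold changes of -0.90 in WT (adjusted p = 0.371) and -0.32 in HCN4F (adjusted p = 0.666). Plac8 had 0.0411 to 0.470 CPM, from 1 to 13 reads per library, and was not tested.

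No lipid-associated gene passed the test after TAC. Trem2, the lipid-sensing receptor that signals through Tyrobp, had 1.33, 0.725, 1.03 and 1.18 CPM in WT-Sham and 0.904 and 0.945 CPM in WT-TAC. The HCN4F-Sham libraries had 1.81, 1.78, 1.37 and 0.755 CPM and in HCN4F-TAC 1.95, 1.71, 1.41 and 2.03 CPM. Sham and TAC overlapped in both genotypes, with log2 fold changes of -0.20 in WT (SE 0.333, adjusted p = 0.761) and 0.33 in HCN4F (SE 0.249, adjusted p = 0.408). Lgals3 (galectin-3) had 1.59, 2.14, 1.95 and 3.23 CPM in WT-Sham and 1.97 and 2.60 CPM in WT-TAC. The HCN4F-Sham values were 6.32, 3.56, 2.53 and 2.35 CPM and in HCN4F-TAC 3.86, 5.24, 2.44 and 4.92 CPM. Its log2 fold changes after TAC were 0.043 in WT (SE 0.417, adjusted p = 0.97) and 0.16 in HCN4F (SE 0.317, adjusted p = 0.778), and both changed sign with 1 library left out. Gpnmb, a lysosomal glycoprotein, had 1.33, 0.689, 1.30 and 1.47 CPM in WT-Sham and 1.73 and 1.49 CPM in WT-TAC, with a log2 fold change of 0.41 (SE 0.309, adjusted p = 0.456). In HCN4F hearts it was 0.059 (adjusted p = 0.9).

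Of the inflammatory genes, Il1b and Tnf were near the limit of the depth, and Nlrp3 had 9 to 39 reads per library. Il1b had 0.628, 0.145, 0.115 and 0.261 CPM in WT-Sham and 0.288 and 0.801 CPM in WT-TAC. In HCN4F-Sham it had 0.414, 0.548, 0.0723 and 0.362 CPM and in HCN4F-TAC 0.705, 0.691, 0.812 and 0.366 CPM. The groups overlapped in both genotypes. The log2 fold change was 0.97 in WT (SE 0.616, adjusted p = 0.37) and 0.92 in HCN4F (SE 0.507, adjusted p = 0.254). Tnf, with 1 to 23 reads per library, had 1.19 in WT (adjusted p = 0.373) and 1.34 in HCN4F (adjusted p = 0.109). Nlrp3, the sensor of an inflammasome, had -0.41 in WT (adjusted p = 0.685) and 0.86 in HCN4F (adjusted p = 0.133).

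In Sham hearts, HCN4F against WT asks whether the set differs without pressure load. None of the 40 genes was called by edgeR or by DESeq2; 9 had an unadjusted p under 0.05, all higher in HCN4F (background 15.2%). Over all tested genes 0.209% were called and 0.471% passed the adjusted p alone. Values were higher in HCN4F for 34 of the 40 genes (85%; all tested genes, 51.1%), with a median log2 fold change of 0.20 (all tested genes, 0.0049), and this median was 0.14 to 0.25 with any 1 library left out. The median log2 difference of the set from the WT-Sham mean was 0.32, 0.29, 0.23 and -0.036 in HCN4F-Sham replicates 1 to 4. Replicate 4 thus lay within the range of the WT-Sham libraries, -0.116 to 0.129. Beside this, the summed cardiomyocyte markers were 64700 to 67100 CPM in WT-Sham and 56900 to 60300 CPM in HCN4F-Sham, without overlap, and their part in the result was not tested. The groups did not overlap for 6 genes, all higher in HCN4F (Adgre1, Cybb, Ms4a7, Msr1, F13a1 and Gpnmb); the backgrounds were 3.89% higher and 4.67% lower, so that the share of higher genes exceeded its background. Gpnmb had 3.24, 2.28, 1.59 and 2.26 CPM in HCN4F-Sham against 0.689 to 1.47 CPM in WT-Sham (log2 fold change 0.96, SE 0.249, adjusted p = 0.0909; 0.0174 by DESeq2). F13a1 had 26.2, 26.2, 38.5 and 26.2 CPM against 25.1, 17.6, 21 and 20.3 CPM (0.48, SE 0.14, adjusted p = 0.131). Replicate 3 was the high value and the other 3 lay close above WT-Sham replicate 1. Ms4a7, a membrane protein of mature macrophages, had 1.36, 1.78, 1.59 and 1.30 CPM against 0.998, 1.23, 0.994 and 1.14 CPM (0.45, SE 0.207, adjusted p = 0.313).

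Beside these values, the sum of 8 neutrophil markers (Csf3r and S100a9 among them) was 0.841 to 2.43 CPM in WT-Sham, 2.78 to 4.30 CPM in HCN4F-Sham, 3.12 to 4.72 CPM in WT-TAC and 2.24 to 6.92 CPM in HCN4F-TAC. Of these, S100a8, S100a9, Cxcr2, Ngp and Camp were at 0 in at least 1 WT-Sham library and Retnlg in all 4. In Sham hearts all 6 tested neutrophil markers had higher values in HCN4F than in WT, with a median log2 fold change of 2. There 5 had an unadjusted p under 0.05 (background 15.2%). EdgeR called 0 of them and DESeq2 called 1, where DESeq2 called 0.405% of all tested genes. After TAC in WT all 6 tested neutrophil markers had higher values, and S100a8 (0 to 0.181 CPM in WT-Sham, 0.487 and 0.780 CPM in WT-TAC; adjusted p = 0.0248) and S100a9 (0 to 0.254 CPM, 0.687 and 1.15 CPM; adjusted p = 0.0409) were called. The share of the neutrophils in the values of Lyz2, Fcgr3 or Il1b was not tested. The sum of 8 T and NK cell markers was 0.961 to 3.14 CPM over all groups; of the 3 tested, Cd247 was called lower after TAC in HCN4F hearts (-1.14, adjusted p = 0.0275) and the other two had higher values. The 7 dendritic cell markers summed to 18.1 to 24.1 CPM, most of it from Zbtb46, but between the TAC groups all 7 had higher values in HCN4F, with a median log2 fold change of 0.87 and 0 called. After TAC in HCN4F hearts 6 of the 7 had higher values, and Ccr7, the receptor of migrating dendritic cells, was called (1.68, adjusted p = 0.00658). The sum of 6 B cell markers was 6.64 to 9.35 CPM in HCN4F-TAC, 3.25 and 6.41 CPM in WT-TAC and 3.44 to 7.49 CPM in the Sham groups, and Cd79a was called higher after TAC in HCN4F hearts (1.5, adjusted p = 0.00699). The 5 mast cell markers summed to 7.53 to 13.7 CPM, most of it from Kit. After TAC in HCN4F hearts 4 of the 5 had lower values, as Retnla did, with a median log2 fold change of -0.87, and the chymase Cma1 was called (-1.38, adjusted p = 0.0222). In WT hearts 4 of the 5 had lower values, with a median of -0.60 and 0 called. Vascular endothelial markers summed to 717 to 1320 CPM. The calls after TAC stand against the 0.706% of all tested genes called in WT and 2.75% in HCN4F hearts. The part of these other cells in the results was not tested.

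In TAC hearts, HCN4F against WT asks whether the pressure-loaded ventricles differ between the genotypes. None of the 40 genes was called by edgeR, although 37 of the 40 (92.5%; all tested genes, 50.7%) had higher values in HCN4F-TAC and the median log2 fold change was 0.46 (all tested genes, 0.0036). The 3 with lower values were Mertk, Cd163 and Retnla. An unadjusted p under 0.05 was reached by 16 genes, all higher (background 12.5%), and the smallest adjusted p was 0.17. Over all tested genes 0.0719% were called and 0.111% passed the adjusted p alone. The 2 groups did not overlap for 15 genes that were higher and 0 that were lower, where the backgrounds were 11.3% and 11.0%, so that the higher share exceeded its background. DESeq2 called 2 of the 40 genes, Fcgr1 (adjusted p = 0.0417) and Cx3cr1 (adjusted p = 0.044), and it called 0.569% of all tested genes. Genes of the same cells share their source, so that these counts are not independent observations.

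**Figure D4:**
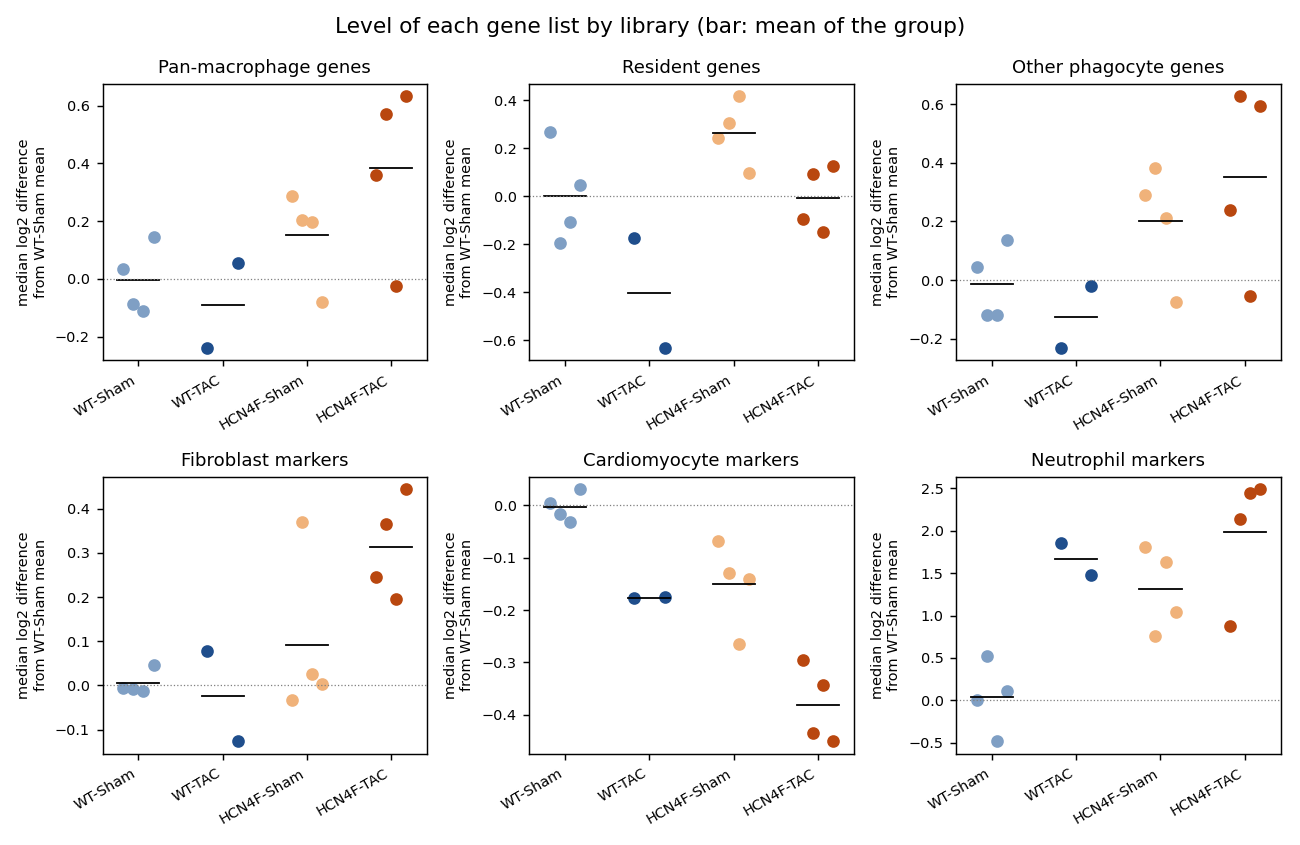
Median log2 difference from the WT-Sham mean over the genes of 6 lists, for each library (points) by group, with the mean of the group (bar). HCN4F-TAC replicate 3 is the lowest of its group in the pan-macrophage, resident, other phagocyte and fibroblast panels, and cardiomyocyte markers are lowest in HCN4F-TAC.

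The 4 HCN4F-TAC libraries were not alike. Replicates 1, 2 and 4 lay above both WT-TAC libraries for 29, 33 and 34 of the 40 genes, and replicate 3 for 19. The matching shares over all tested genes were not computed, so that no background stands beside these counts. The summed CPM of the 23 general genes was 314, 357, 267 and 363 in HCN4F-TAC replicates 1 to 4 and 221 and 272 in the WT-TAC libraries. Replicate 4 was the highest of all 14 libraries for 14 of the 40 tested genes, again without a background. Without replicate 3 the median log2 fold change of the set was 0.59, and 5 genes passed the adjusted p alone (Cd68, Fcgr1, Tyrobp, Laptm5 and Pf4, all higher), where 2.97% of all tested genes did. Fcgr1 was then called (1.46, adjusted p = 0.0312), as were 1.03% of all tested genes. Without WT-TAC replicate 3 the median was 0.67, and over the other single libraries it was 0.40 to 0.50. Fibroblast markers moved in the same libraries: their summed level was 1010, 1160, 746 and 1120 CPM in HCN4F-TAC replicates 1 to 4. The mitochondrial share of reads was 17.3, 13.9, 18.6 and 16.8% in the same libraries, so that it was highest in replicate 3, and 18.4 and 20.0% in WT-TAC. Whether the set differed beyond this shift in other cell types, or beyond the mitochondrial share, was not tested.

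Ccr2, Cx3cr1 and Fcgr1 had the largest differences among the genes with a mean of at least 1 CPM and no overlap. Ccr2 had 1.73 to 4.31 CPM in HCN4F-TAC against 0.780 and 1.43 CPM in WT-TAC, a log2 fold change of 1.34 (SE 0.481, adjusted p = 0.264). Cx3cr1 had 4.98 to 5.86 CPM against 1.77 and 2.58 CPM, a log2 fold change of 1.33 (SE 0.421, adjusted p = 0.216). All 4 HCN4F-TAC libraries, replicate 3 included, lay above the 10 others. Fcgr1 had 3.19, 3.85, 1.84 and 2.89 CPM against 0.698 and 1.63 CPM, a log2 fold change of 1.29 (SE 0.367, adjusted p = 0.17), with replicate 3 close to the higher WT-TAC library. Nlrp3 had 0.539, 0.889, 0.600 and 1.59 CPM against 0.452 and 0.258 CPM, a log2 fold change of 1.38 (SE 0.486, adjusted p = 0.252), with 9 to 39 reads per library in these 2 groups.

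All 3 lipid-associated genes had positive log2 fold changes between the TAC groups, without being called. Trem2 had 1.41 to 2.03 CPM against 0.904 and 0.945 CPM (log2 fold change 0.93, SE 0.324, adjusted p = 0.246), Gpnmb 1.94 to 3.13 CPM against 1.73 and 1.49 CPM (0.61, SE 0.299, adjusted p = 0.417) and Lgals3 2.44 to 5.24 CPM against 1.97 and 2.60 CPM (0.83, SE 0.41, adjusted p = 0.425). Trem2 and Gpnmb did not overlap and Lgals3 did, through replicate 3. Tyrobp, the adaptor of Trem2, had 6.64, 7.67, 4.84 and 7.12 CPM against 4.03 and 4.41 CPM (0.64, SE 0.193, adjusted p = 0.184). Il1b had a log2 fold change of 0.19 (SE 0.567, adjusted p = 0.93), which was -0.31 without WT-TAC replicate 2. Resident genes had a median of 0.31, with Pf4 at 0.64 (adjusted p = 0.257), Cbr2 at 0.62 (adjusted p = 0.255) and Mrc1 at 0.37 (adjusted p = 0.351).

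The genotype by surgery interaction asks whether TAC acted differently in HCN4F and WT hearts. It was passed by 0 of the 40 genes with edgeR and with DESeq2, and by 0% of all tested genes with edgeR. At an unadjusted p under 0.05 there were 4 (Cd68, Fcgr1, Fcgr3 and Mpeg1), all with a higher response in HCN4F hearts. Over all tested genes 9.27% reached it, so that the share of the 40 lay near its background. The smallest adjusted p was 0.466. The largest of the 4 was Fcgr1, at 1.30 (SE 0.471, unadjusted p = 0.0136), where the 2 WT-TAC libraries had 0.698 and 1.63 CPM. Without HCN4F-TAC replicate 3, 12 of the 40 had an unadjusted p under 0.05. The adjusted p was then passed by 0 of the 40 and by 0.51% of all tested genes.

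Further genes of the same cells and pathways were read from lists that held none of the 41. These lists too were chosen with earlier results of these data known. They were read in the same libraries, so that they are not independent of the set. Of 42 other mononuclear phagocyte genes, 40 were tested. Values after TAC were higher for 14 in WT (35%, all tested genes 46.5%) and for 32 in HCN4F (80%, all tested genes 48.9%). Between genotypes, 36 had higher values in HCN4F in Sham hearts (90%, all tested genes 51.1%) and 40 in TAC hearts (100%, all tested genes 50.7%). In HCN4F hearts 2 passed the adjusted p alone after TAC: Irf8, a transcription factor of monocytes and dendritic cells (0.51, adjusted p = 0.0214), and Ednrb, an endothelin receptor (0.58, adjusted p = 0.0278). That share lay below the 13.6% of all tested genes. In Sham hearts 1 was called, Clec7a, the beta-glucan receptor Dectin-1, which is also among the lipid-associated genes outside the set and was higher in HCN4F (1.35, SE 0.245, adjusted p = 0.0214), where 0.209% of all tested genes were called. In TAC hearts 0 were called by edgeR or DESeq2. An unadjusted p under 0.05 was reached by 18, all higher (background 12.5%), and the median log2 fold change of the 40 was 0.46.

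Of the CSF1 and DAP12 signalling genes, 18 of 23 were tested. After TAC in HCN4F hearts 3 passed the adjusted p alone, all higher: the kinase Syk (0.54, adjusted p = 0.000397), the phospholipase Plcg2 (0.80, adjusted p = 0.000206) and Tgfb1 (0.38, adjusted p = 0.0228). In WT hearts Plcg2 did (0.49, adjusted p = 0.0446). Both shares lay near the backgrounds of 13.6% and 4.54%. Of the lipid-associated genes outside the set, 15 of 16 were tested. Spp1 (osteopontin) was called after TAC in HCN4F hearts (2.09, adjusted p = 0.0197), where Cd9 passed the adjusted p alone as higher (0.40, adjusted p = 0.0378) and Lpl as lower (-0.26, adjusted p = 0.0496). These 3 of 15 stand against the same 13.6%. In WT hearts 9 of the 15 had higher values after TAC, with 0 called by edgeR and 1 by DESeq2. Between genotypes 13 of the 15 had higher values in HCN4F in Sham hearts (Clec7a called) and 11 in TAC hearts, with 0 called by edgeR and 1 by DESeq2. Spp1 had 0.495 to 2.17 CPM in HCN4F-TAC and 0.164 and 0.229 CPM in WT-TAC (2.66, SE 0.753, adjusted p = 0.17). Of the inflammatory genes outside the set, 12 of 17 were tested. Tlr4, the receptor for which Cd14 is a co-receptor, was higher in TAC than in Sham hearts of WT (0.74, adjusted p = 0.0325, not called) and of HCN4F (1.08, adjusted p = 0.000324, called). Ptgs2 was called in HCN4F hearts after TAC (2.45, adjusted p = 2.8e-05) and between the TAC groups (1.88, adjusted p = 0.0176). In HCN4F hearts Tlr4 and Ptgs2 were 2 of 12 called, where 2.75% of all tested genes were; between the TAC groups it was 1 of 12, where 0.0719% were. Many of these genes are made by other cells of the heart too, and which cells carried them was not tested.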

How the data were processed

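RNA from the left ventricle was sequenced on an Illumina platform after poly(A) selection. The authors deposited raw counts, whole numbers of reads per gene without normalization; per the labels the genome build was GRCm38. The aligner, the counting program and the use of strand are not given in the sources used here. Of 16 samples described, 14 libraries were assigned to groups from their labels, and 2 further columns of per-sample values were not used. The members and lists were chosen with earlier results of these data known.

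Genes were filtered with edgeR's filterByExpr by group and scaled with TMM. All 4 groups were fitted in 1 model with edgeR 4.0.16 (R 4.3.3), and tested by the quasi-likelihood test with Benjamini-Hochberg adjustment over 15292 genes. The interaction used the adjusted p alone. A prior count of 2 entered the log2 values of single libraries. CPM has no pseudocount. Full statistics were given for Adgre1, Cd68, Csf1r, Lyve1, Timd4, Ccr2, Trem2, Lgals3 and Il1b after TAC in both genotypes and between the TAC groups, for called members, and for the 3 largest rises and falls without overlap at a mean CPM of at least 1. Other genes were named after their values were seen.

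The alternatives were DESeq2 1.42.0, DESeq2's size factors in edgeR, an edgeR fit of only the groups compared, no filter, a mean CPM of at least 1, the replicate number as a block, the adjusted p alone, and each library left out. The steps were tested on simulated data. Gene positions and exon lengths came from GENCODE M21 (GRCm38), which held 99.5% of the IDs. Libraries of 1 group differed by a chi-square per gene of 6.30 to 62.9, where counting alone gives about 1. Figures were drawn with matplotlib 3.10.9.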

Additional observations from a re-analysis of the deposited data

Results flagged for a closer look

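Of 120 groups of 4 libraries (40 genes in 3 groups), 3 held a value far from the other 3 by Dixon's gap test, where chance flags about 1 in 20 groups. Fcgr3, a low-affinity IgG receptor, had 6.43 CPM in HCN4F-TAC replicate 3, below the 10.9 to 11.3 CPM of the other 3. Mrc1 had 28.6 CPM in HCN4F-TAC replicate 4, above the 18.4 to 19.8 CPM of the other 3. F13a1 had 38.5 CPM in HCN4F-Sham replicate 3, where the other 3 had 26.2 CPM. No member passed the test of a difference between the genotypes' TAC responses, so that none is listed for such a difference.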

How the results depend on the processing

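The count of called genes after TAC in WT, 0, became 1 (Retnla) with DESeq2, edgeR on the compared groups, no filter and a mean CPM of at least 1, and was 0 to 1 with 1 library left out. Without both HCN4F-TAC replicates 2 and 3, an alternative chosen after seeing the data, it was 1. After TAC in HCN4F the count was 2 with the adjusted p alone and 1 to 2 with 1 library left out. Between the TAC groups it was 2 with DESeq2 (0.569% of all tested genes called) and 0 to 1 with 1 library left out (1 without HCN4F-TAC replicate 3, where 1.03% of all were called), against 0.0719% of all as reported, and the median log2 fold change ranged from 0.397 to 0.673. Of the 41 genes, the number passing the interaction and the number called in Sham hearts were 0 in every alternative run; the interaction could not be fitted on the 2 compared groups alone.

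Signs were followed for the genes given with full statistics; others of the 40, such as Csf1 after TAC in WT (-0.145 to 0.593), changed sign too. With 1 library left out, the log2 fold change after TAC in WT changed sign for Adgre1 (-0.17 to 0.41), Ccr2 (-0.998 to 0.0076) and Lgals3 (-0.18 to 0.285; also -0.093 and -0.016). It did so after TAC in HCN4F for Csf1r (-0.048 to 0.187; also -0.0013) and Lgals3 (-0.010 to 0.562), and between the TAC groups for Il1b (-0.31 to 1.16) and Lyve1 (-0.22 to 0.875). Il1b was -0.11 there without both HCN4F-TAC replicates 2 and 3. Where 1 WT-TAC library remains, its spread is taken from the other groups. In each of these the reported value was not called, and the cause was not tested.

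Same-numbered libraries did not deviate together (2 of 18 pairs with a correlation over 0.1). With the replicate number as a block, 0, 1, 0 and 0 genes were called in the 4 comparisons (after TAC in WT and in HCN4F, between genotypes in Sham and in TAC), as without it, and the medians were -0.093, 0.21, 0.22 and 0.41. The depth limits Plac8, Ly6c2, Tnf and Il1b, with 1 to 28 reads per library, and n = 2 in WT-TAC limits both comparisons that use it.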
